A study of Mus musculus with 9 samples.

Results

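Kidneys were compared between day 7 and day 3 after a single toxic dose of cisplatin. The comparison rests on 6 of the 9 RNA libraries of the study: 3 labelled Cis3d and 3 labelled Cis7d, chosen by their titles. All came from whole kidney of C57BL/6 mice. Both cisplatin groups had received 20 mg/kg body weight by intraperitoneal injection and were sampled 3 or 7 days later, and the 3 sham libraries came from mice injected with an equal volume of saline. The labels give no age, sex, genetic modification or time of day. The design text calls the 3 libraries of a group biological repeats, and each day has its own samples, so no kidney was followed over time. Whether they came from separate mice is not stated beyond that, and p-values measure the spread between these libraries. Sham values are printed only beside those of the 2 cisplatin groups, and no test compares them. The sham libraries enter the fit only through the shared estimate of spread, but they also count towards which genes are tested. Counting the 6 cisplatin libraries alone, 13306 genes were tested, against 13718 with all 9.

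Cisplatin is a platinum compound used against tumours that binds DNA and injures the kidney, above all the proximal tubule, whose cells take it up through the organic cation transporter encoded by Slc22a2. Injured tubule cells stop making their transporters and metabolic enzymes, switch on p53 targets such as the cell cycle inhibitor gene Cdkn1a, and make injury proteins such as KIM-1 (Havcr1) and NGAL (Lcn2). During repair, surviving tubule cells regain their mature genes, while cells that fail to do so are known for lasting expression of adhesion and inflammatory genes such as Vcam1. The comparison of day 7 with day 3 therefore addresses which of these programmes had moved apart between the 2 times and which had not.

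Expression was measured as FPKM, fragments scaled by transcript length and by the number of mapped fragments. Differences are given on the log2(FPKM + 1) scale as day 7 minus day 3, so 1 unit is a 2-fold difference, although the added 1 shrinks the differences of low genes. A gene was tested where it reached 1 FPKM in at least 3 of the 9 libraries, and it was called where the adjusted p of limma's moderated test (Benjamini-Hochberg over all 13718 tested genes) was under 0.05. Kidney markers were present in all 6 libraries: the proximal tubule phosphate transporter gene Slc34a1 ranged from 9.83 to 45.4 FPKM at day 3 and from 498 to 620 at day 7, and the thick ascending limb gene Umod from 117 to 481 and from 920 to 1066. Markers of adrenal gland and skeletal muscle stayed under 1 FPKM in all 9 libraries, other than Star and Mylpf (1.68 or less), with Cyp11b1 at 0 in all 9 libraries and Ckm at 0.11 FPKM or less. The number of reads behind each value is unknown, since the files hold no counts. In whole tissue, fewer cells of a type and less RNA per cell cannot be told apart.

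Of the 13718 tested genes, 7603 were called, which is 55.4%. Of these, 2977 were higher at day 7 (21.7% of the tested genes) and 4626 were lower (33.7%). These shares are the background for every gene list below. A difference of at least 2-fold was reached by 1309 of the higher and 1970 of the lower genes, and a difference of at least 8-fold by 123 and 129. Among called genes, 7438 (97.8%) had day 3 and day 7 libraries that did not overlap in FPKM. With 3 libraries a group, a call itself favours groups that do not overlap, so this share is no separate support. The median over all tested genes was -0.16. With median-of-ratios scaling between libraries this median was -0.03, and 49.1% of the called genes were higher, against 39.2% with the deposited values. Quantile normalization gave 49.8%. Of the 7603 calls, 6818 and 6813 were kept under the 2 scalings, and none of those kept changed its sign. Calls that were lost were not checked for sign. A list is read below against the median of -0.16.

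**Figure D1:**
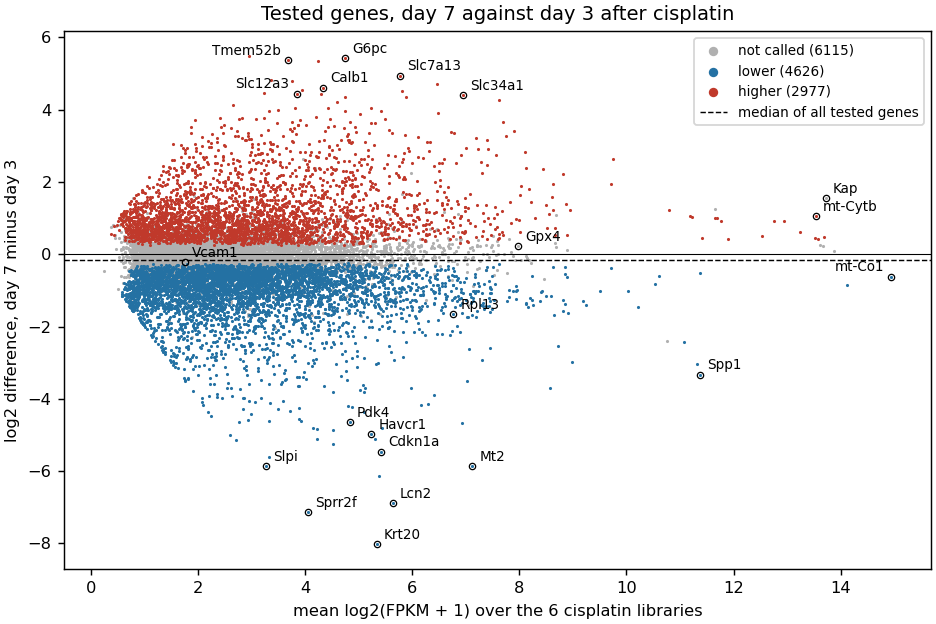
Each point is a tested gene: the x axis gives its mean log2(FPKM + 1) over the 6 cisplatin libraries and the y axis its log2 difference, day 7 minus day 3. Red points are the 2977 called genes that were higher at day 7, blue points the 4626 that were lower, grey points the 6115 that were not called, and the dashed line is the median of -0.16. Krt20 lies lowest among the labelled genes and G6pc highest.

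The largest falls among genes whose libraries did not overlap included keratin, cornified envelope and secreted defence genes of epithelia. Krt20, a keratin of epithelial surfaces (chromosome 11, 99428403 to 99438150, GRCm38), had 691, 669 and 591 FPKM at day 3 and 0.77, 4.34 and 0.64 at day 7 (log2 difference -8.03, SE 0.41, limma adjusted p = 4.39e-06). Sprr2f, which encodes a small proline-rich protein of cornified epithelium, had 262, 187 and 151 FPKM at day 3 and 0.24, 0.82 and 0.18 at day 7 (log2 difference -7.14, SE 0.22, limma adjusted p = 8.62e-07). Lcn2, which encodes the iron-siderophore binding protein NGAL, had 556, 743 and 381 FPKM at day 3 and 2.31, 10.1 and 1.59 at day 7 (log2 difference -6.89, SE 0.75, limma adjusted p = 0.000117). Every day 3 library of these 3 genes lay far above every day 7 library, and among the day 7 libraries the second was the highest each time. Slpi, a secreted protease inhibitor, was steadier, with 79.1, 63.3 and 75 FPKM at day 3 and 0.27, 0.25 and 0.25 at day 7 (log2 difference -5.86, SE 0.12, limma adjusted p = 6.37e-08), and its difference was the largest relative to its error among the lower genes. Akr1b8, an aldo-keto reductase (-5.26), and Hmga1b, a near-identical copy of the chromatin protein gene Hmga1 whose reads may be split between copies (-5.11), were among the 10 that fell furthest.

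Among the largest rises stood genes of glucose, steroid and amino acid handling in the mature tubule. G6pc, the glucose-6-phosphatase that releases glucose in the last step of gluconeogenesis (chromosome 11, 101367561 to 101377903), had 2.66, 3.27 and 3.39 FPKM at day 3 and 218, 108 and 229 at day 7 (log2 difference 5.43, SE 0.61, limma adjusted p = 0.000136). Tmem52b, a transmembrane protein gene of the distal convoluted tubule, had 1.56, 0.77 and 0.7 FPKM at day 3 and 70.2, 86.7 and 87.3 at day 7 (log2 difference 5.38, SE 0.19, limma adjusted p = 1.15e-06) and the largest difference relative to its error among the higher genes. The 6 values of each gene parted into low day 3 and high day 7 libraries with no overlap. Ugt2b37 (5.34) and Ugt2b38 (4.72) encode glucuronosyltransferases of a multigene family, so their separate values are uncertain. Slc7a13, a cystine and aspartate transporter of the straight proximal tubule, differed by 4.94, Hsd3b2, a steroid dehydrogenase, by 4.82, and Gatm, which starts creatine synthesis, by 4.51. Car14, a membrane carbonic anhydrase, was even within each day, with 2.46, 2.82 and 2.8 FPKM at day 3 and 27.1, 27.1 and 26.4 at day 7.

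**Figure D2:**
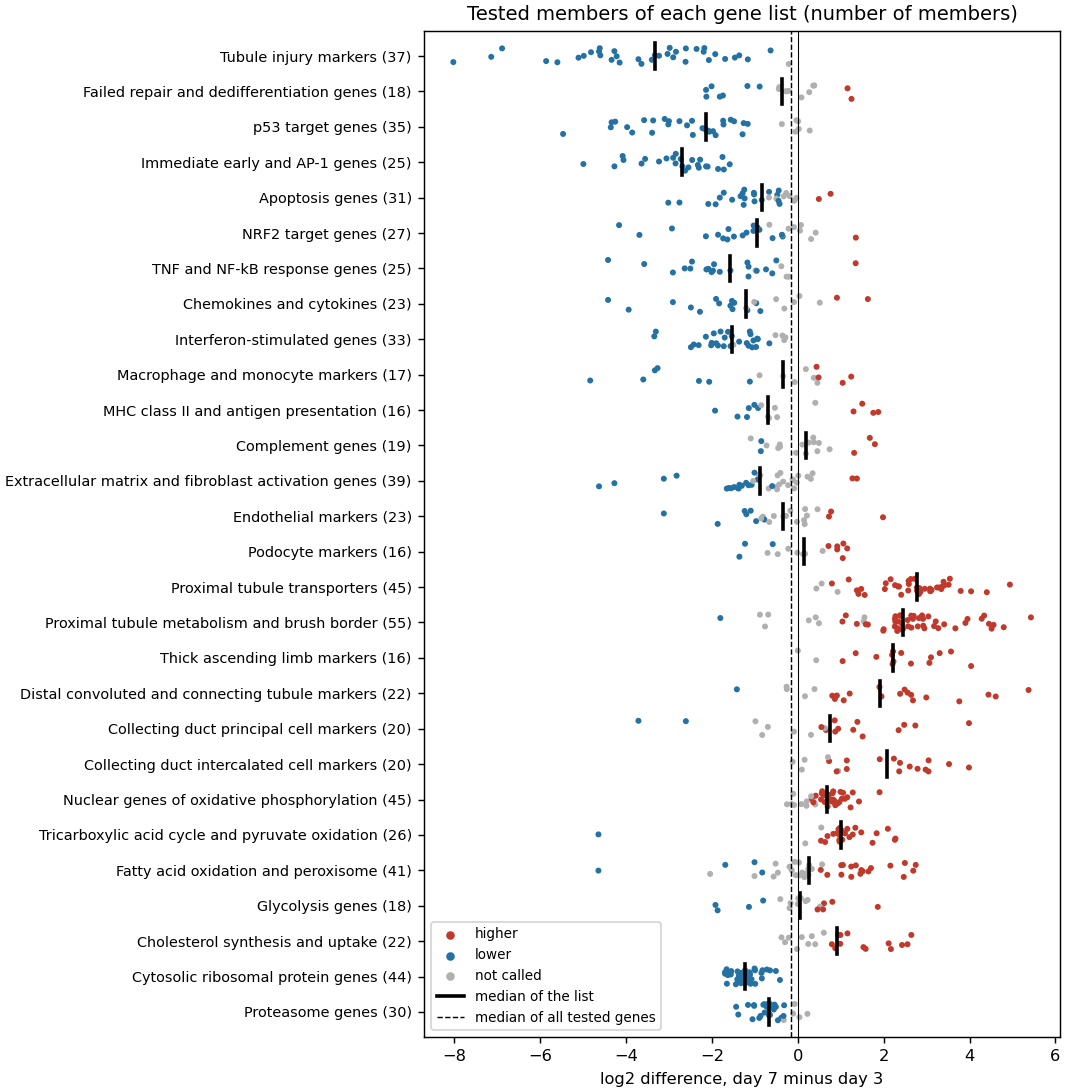
Each point is 1 tested member of a gene list, placed by its log2 difference, day 7 minus day 3; black bars are list medians and the dashed line is the median of all tested genes. Injury, p53 and immediate early genes lie to the left, with list medians of -3.33, -2.14 and -2.69, and proximal tubule transporters to the right, with 2.78.

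Tubule injury markers were lower at day 7 almost without exception: 36 of 37 tested members fell, none rose, and the median difference was -3.33. Havcr1 had 402, 141 and 163 FPKM at day 3 and 1.04, 58.2 and 1.45 at day 7 (log2 difference -4.99, SE 1.35, limma adjusted p = 0.0125). Day 7 libraries 1 and 3 lay under every sham value (8.29, 35.5 and 1.5), whereas the second lay above all of them. Spp1, the osteopontin gene, had 7699, 11192 and 6822 FPKM at day 3 and 552, 1809.5 and 576 at day 7 (log2 difference -3.33, SE 0.49, limma adjusted p = 0.000539), and its second day 7 library was again the highest of that day. Sox9, a transcription factor of regenerating tubule cells, had 4.97, 4.22 and 5.56 FPKM at day 3 and 0.24, 0.51 and 0.14 at day 7 (log2 difference -2.19, SE 0.14, limma adjusted p = 9.06e-06), and Clu, the secreted chaperone clusterin, had 341, 247 and 183 FPKM at day 3 and 62.8, 97.1 and 72.5 at day 7 (log2 difference -1.69, SE 0.26, limma adjusted p = 0.000627). Neither gene's groups overlapped. Other members that fell were the tight junction gene Cldn4 (-4.82), the urokinase receptor gene Plaur (-4.6), the TWEAK receptor gene Tnfrsf12a (-4.61), the lipid droplet gene Plin2 (-4.15), and the keratin genes Krt18 (-3.71), Krt8 (-2.61) and Krt19 (-2.9).

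Vcam1, the vascular cell adhesion molecule that marks unrepaired proximal tubule cells, was the 1 injury marker that did not pass. It had 2.91, 2.25 and 2.73 FPKM at day 3 and 0.8, 7.63 and 0.96 at day 7 (log2 difference -0.21, SE 0.51, limma adjusted p = 0.746). Its second day 7 library exceeded all day 3 libraries, while libraries 1 and 3 lay close to the sham values (0.76, 0.74 and 0.95). Without that second library, the difference was -0.95, adjusted p = 0.000948. Of the wider list of failed repair and dedifferentiation genes, 18 of 24 members were tested, 7 fell, 2 rose and 9 did not pass, with a median of -0.36. Those that fell were led by Sox4, a transcription factor of immature epithelium, with 26.8, 14.7 and 17 FPKM at day 3 and 3.11, 4.69 and 2.93 at day 7 (log2 difference -2.14, SE 0.26, limma adjusted p = 0.000184), and by the non-canonical NF-kB genes Relb (-2.13) and Nfkb2 (-2.01). Among those that did not pass, the integrin subunit gene Itgb6 had 45.4, 15.5 and 18.8 FPKM at day 3 and 15.7, 22.3 and 20.5 at day 7, the stem cell antigen gene Prom1 10.1, 9.45 and 5.41 FPKM at day 3 and 11.3, 15.6 and 6.72 at day 7, and the integrin subunit gene Itgav 3.42, 4.24 and 5.08 FPKM at day 3 and 1.29, 13 and 1.61 at day 7. For Itgav the second day 7 library was again far above the others, and without it the difference was -1.09, adjusted p = 0.0012. Without that library 10 of the 18 members were lower.

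p53 target genes were lower too, 29 of 35 tested members being lower, none higher and 6 not called, with a median of -2.14. Cdkn1a, which encodes the cell cycle inhibitor p21, had 263, 296 and 288 FPKM at day 3 and 5.44, 9.11 and 3 at day 7 (log2 difference -5.47, SE 0.40, limma adjusted p = 1.74e-05). Btg2, an antiproliferative gene, had 208, 136 and 126 FPKM at day 3 and 7.38, 8.4 and 4.38 at day 7, and the stress cytokine gene Gdf15 94.5, 49.7 and 42 FPKM at day 3 and 1.61, 3.66 and 1.07 at day 7. All 3 were more than 10-fold apart in every pairing of a day 3 with a day 7 library. Mdm2, the ubiquitin ligase that restrains p53, differed by -2.47, and the death receptor gene Tnfrsf10b by -2.76. The 6 that did not pass were Ddb2, Tigar, Xpc, Rrm2b, Dcxr and Sesn1, and all 6 had 95% intervals within a 2-fold difference. Sesn1, a stress-induced regulator of growth signalling, was called higher with median-of-ratios scaling (0.40, adjusted p = 0.0177) and quantile normalization (0.45, adjusted p = 0.0105). Xpc, the lesion sensor of nucleotide excision repair, stayed at 7.5, 7.37 and 7.26 FPKM at day 3 and 7.15, 7.31 and 7.08 at day 7.

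DNA repair genes gave 10 lower, 2 higher and 12 not called of 24, beside 33.7% lower and 21.7% higher of all tested genes. Ercc1, a subunit of the nuclease that cuts beside platinum lesions, fell furthest, with 42.3, 38.2 and 37.4 FPKM at day 3 and 2.39, 2.83 and 2.3 at day 7 (log2 difference -3.52, SE 0.14, limma adjusted p = 1.41e-06). Rad18, which directs replication past lesions, differed by -1.02, and the translesion polymerase gene Polk by -1.56. Against them, Parp1, which senses strand breaks, rose from 5.69, 4.24 and 4.59 FPKM to 9.25, 10.2 and 10.3 (log2 difference 0.91, SE 0.12, limma adjusted p = 0.000281). Of the 12 uncalled repair genes, 11 had intervals within a 2-fold difference. DNA replication genes gave 8 lower, 2 higher and 11 not called of 21, beside the same shares of all tested genes. The lower ones were led by the origin licensing gene Cdt1 (-1.76) and the helicase subunit gene Mcm7 (-1.66). Only 9 of 30 mitosis genes passed the filter on low values and 2 of these were lower, Cdc20 (log2 difference -1.25, SE 0.36, limma adjusted p = 0.0157) and Kif23 (log2 difference -0.58, SE 0.21, limma adjusted p = 0.0396), both needed for cell division. Both calls were lost without day 3 library 2 or 3 or day 7 library 1 or 3, with -1.07, adjusted p = 0.0593 for Cdc20 and -0.45, adjusted p = 0.136 for Kif23 without the last of these. Mki67 stayed below the filter, with 0.49, 0.31 and 0.5 FPKM at day 3 and 0.5, 2.75 and 0.43 at day 7, the second day 7 library being the highest. Leaving that library out, 6 of the 9 mitosis genes were lower. The call of Kif23 was also lost with the 6 cisplatin libraries alone (adjusted p = 0.0579) and with median-of-ratios scaling (-0.49, adjusted p = 0.0584).

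Immediate early and AP-1 genes, which are switched on within minutes of stress or growth signals, fell without exception: 25 of 25 tested members were lower, with a median of -2.69. Fosl1, which encodes the AP-1 subunit FRA-1, had 28.1, 35.4 and 35.6 FPKM at day 3 and 0, 0.17 and 0.02 at day 7 (log2 difference -5.0, SE 0.13, limma adjusted p = 3.83e-07). Atf3 had 23.5, 41.5 and 37.6 FPKM at day 3 and 0.82, 1.84 and 0.6 at day 7, and Egr1 43.3, 56 and 45.2 FPKM at day 3 and 1.95, 2.99 and 1.13 at day 7. None of these 3 had a day 7 library within reach of its day 3 values. Fos (-2.73), Jun (-2.69), Myc (-2.46) and the MAP kinase phosphatase gene Dusp5 (-4.27) were lower as well. The AP-1 consensus TGANTCA was found on either strand in none of 26 promoters of 20 listed members, searched over the 250 bases before each start in RefSeq promoters of GRCm38.p6, against 6.75% of all 32851 promoters in that table.

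Metallothionein genes, whose small proteins bind zinc, copper and platinum, fell steeply. Mt2 had 1337, 1137 and 776 FPKM at day 3 and 11, 27.8 and 16.1 at day 7 (log2 difference -5.87, SE 0.52, limma adjusted p = 4.39e-05), and Mt1 755, 704 and 434 FPKM at day 3 and 24.4, 28 and 18.4 at day 7 (log2 difference -4.66, SE 0.40, limma adjusted p = 3.46e-05). Every day 3 library stood more than 10-fold above every day 7 library. All day 7 values of Mt1 lay under its sham values (93.8, 44.1 and 29.1), and those of Mt2 overlapped with sham (71.5, 24.5 and 16). The Mt2 promoter is shown because its list moved in both directions while it fell furthest; capitals mark matches to the metal response element core TGCNCNC on either strand, in the 250 bases before the start (chr8:94172368-94172617, plus strand, GRCm38.p6).
Mt2: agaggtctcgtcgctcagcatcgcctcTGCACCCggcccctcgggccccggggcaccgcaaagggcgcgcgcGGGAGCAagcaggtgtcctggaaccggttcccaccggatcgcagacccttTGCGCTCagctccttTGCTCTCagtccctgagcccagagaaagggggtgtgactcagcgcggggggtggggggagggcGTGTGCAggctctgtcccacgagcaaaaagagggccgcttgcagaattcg
The 5 matches begin 223, 178, 128, 113 and 50 bases before the start. The element is short and loose: it occurred in 44.4% of all promoters and in 54.2% of the 24 promoters of list members. Several genes that carry cisplatin or process its conjugates went the other way. Slc22a2, the uptake transporter, had 7, 7.96 and 9 FPKM at day 3 and 113, 81.7 and 112 at day 7 (log2 difference 3.51, SE 0.19, limma adjusted p = 5.55e-06), Slc47a1, the efflux transporter MATE1, differed by 2.05, and Dpep1, a dipeptidase that cleaves cysteinyl-glycine conjugates, by 2.82. The efflux pump gene Abcc2 did not pass, with 42.6, 26.2 and 24.9 FPKM at day 3 and 40.2, 37.7 and 46 at day 7 (log2 difference 0.43, SE 0.20, limma adjusted p = 0.0965), but did with median-of-ratios scaling (0.59, adjusted p = 0.0304). The list as a whole held 9 lower, 8 higher and 3 uncalled members of 20.

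NRF2 targets, the genes of the antioxidant response, were lower in 18, higher in 1 and not called in 8 of 27, with a median of -0.94. Srxn1, which repairs oxidized peroxiredoxins, had 462, 269.7 and 222 FPKM at day 3 and 22.9, 10 and 17.4 at day 7 (log2 difference -4.16, SE 0.62, limma adjusted p = 0.000561), and the haem oxygenase gene Hmox1 172, 129 and 119.9 FPKM at day 3 and 19.3, 15.1 and 17.7 at day 7 (log2 difference -2.93, SE 0.17, limma adjusted p = 7.75e-06). The 1 member called higher was Me1, malic enzyme, at 71.2, 45.5 and 58.5 FPKM at day 3 and 153, 125 and 170.2 at day 7. Without day 3 library 1, 3 NRF2 target genes were higher and the median was -0.64. Prdx1, an abundant peroxiredoxin, did not pass, with 371, 264 and 251 FPKM at day 3 and 284, 253 and 283 at day 7. Among ferroptosis and glutathione genes 12 fell, 3 rose and 11 did not pass, of 26. The prostaglandin synthase gene Ptgs2 (-2.81) and the acyl-CoA synthetase gene Acsl4 (-1.74) fell. Gpx4, the peroxidase that reduces lipid peroxides, did not pass, with 287, 215 and 205 FPKM at day 3 and 292, 255 and 267 at day 7 (log2 difference 0.22, SE 0.15, limma adjusted p = 0.235). Its 95% interval was -0.11 to 0.55, and all 6 values lay below the 3 sham values (527, 579 and 510.2). Gpx4 was called higher without day 3 library 1 (0.37, adjusted p = 0.0221), with length and GC trends removed (0.66, adjusted p = 0.00533) and when libraries were scaled by median of ratios (0.38, adjusted p = 0.0455).

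Chaperone and protein-folding genes moved in both directions. The small heat shock protein genes Hspb1 (106, 121 and 129.8 FPKM at day 3 and 6.85, 15 and 4.49 at day 7) and Cryab (203, 246 and 215 FPKM at day 3 and 99.6, 37.4 and 33.5 at day 7) and the co-chaperone gene Bag3 (-1.38) fell. The mitochondrial chaperonin genes Hspd1 (1.11) and Hspe1 (1.16) and the cytosolic Dnaja1 (1.4) and Hspa8 (1.12) rose, and 11 of the 19 heat shock genes did not pass. The promoter of Hspe1, 1 of the 2 listed genes whose promoter held the heat shock element, is shown with its overlapping matches in capitals; the element was searched on both strands as GAA, TTC and GAA in a row with NN between them (chr1:55087898-55088147, plus strand, GRCm38.p6).
Hspe1: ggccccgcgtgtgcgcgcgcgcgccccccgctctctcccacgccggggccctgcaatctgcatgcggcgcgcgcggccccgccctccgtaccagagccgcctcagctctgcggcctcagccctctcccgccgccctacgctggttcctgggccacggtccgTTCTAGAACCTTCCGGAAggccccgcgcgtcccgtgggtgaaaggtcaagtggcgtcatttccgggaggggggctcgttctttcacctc
These 2 matches begin 89 and 84 bases before the start. The element was present in 10% of 20 promoters of listed members and 0.466% of all promoters. Of 28 endoplasmic reticulum and integrated stress genes, 12 fell and 8 rose. Ppp1r15a, which ends the translation block (-3.65), and Ddit3, the stress factor CHOP (-2.08), were lower, while the folding genes Dnajc3 (1.3), Pdia4 (1.01), Hsp90b1 (1.01) and Calr (0.99) were higher. Hspa5, the chaperone BiP, did not pass, with 101, 154 and 139.7 FPKM at day 3 and 136, 138 and 172 at day 7.

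Cell death genes that passed the filter were mostly lower. Of 31 apoptosis genes 21 fell, 2 rose and 8 did not pass. Bax, the pore-forming effector, had 49, 51 and 47.2 FPKM at day 3 and 9.57, 13.7 and 9.54 at day 7 (log2 difference -2.09, SE 0.15, limma adjusted p = 1.53e-05), and Pmaip1, which encodes NOXA, 55.4, 25.8 and 87 FPKM at day 3 and 4.13, 8.09 and 4.36 at day 7 (log2 difference -3.02, SE 0.40, limma adjusted p = 0.000322). The 2 that rose were Bid (0.76) and the survival gene Bcl2 (0.49), whose call was lost with length and GC trends removed (0.27, adjusted p = 0.111). Mlkl and Ripk3, executioner and kinase of necroptosis, differed by -2.59 and -2.01. Of the 12 tested necroptosis and pyroptosis genes 8 were lower, with a median of -0.90, against 5 without day 7 library 1 or 3. Another 9 listed members stayed below the filter, which genes near 0 at day 7 and in sham can pass only through day 3. With no filter, 6 of 20 were lower, 1 higher and 13 not called, with a median of -0.17.

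Proximal tubule transporters rose almost throughout: 42 of 45 tested members were higher at day 7, none was lower, and the median was 2.78. Slc34a1, the main phosphate transporter (chromosome 13, 55398187 to 55415592), had 9.83, 37.3 and 45.4 FPKM at day 3 and 587, 498 and 619.7 at day 7 (log2 difference 4.4, SE 0.55, limma adjusted p = 0.000238). Lrp2, which encodes the endocytic receptor megalin, had 9.29, 8.34 and 14.3 FPKM at day 3 and 102, 116 and 129.6 at day 7 (log2 difference 3.36, SE 0.34, limma adjusted p = 8.27e-05). Slc5a8, a lactate and nicotinate transporter, had 2.82, 2.18 and 2.38 FPKM at day 3 and 53, 50.4 and 64.2 at day 7 (log2 difference 4.04, SE 0.19, limma adjusted p = 2.84e-06). No day 3 library of the 3 genes reached a day 7 value, and Slc34a1 was lowest in the first day 3 library. The glucose transporter genes Slc5a2 (3.34) and Slc2a2 (3.29), the organic anion transporter genes Slc22a6 (2.72) and Slc22a8 (3.08), the urate transporter gene Slc22a12 (3.39) and the cubilin gene Cubn (3.08) rose with them. Slco1a1, an organic anion transporter, was called with an uneven day 7 group, 0.46, 3.87 and 8.05 FPKM at day 3 and 39.3, 6.7 and 43.4 at day 7 (log2 difference 2.58, SE 0.81, limma adjusted p = 0.0239). That call was lost without day 3 library 1 (1.85, adjusted p = 0.074), day 7 library 1 (2.21, adjusted p = 0.0801) or day 7 library 3 (2.14, adjusted p = 0.0846). With no filter on low values Slco1a1 was also not called (adjusted p = 0.0514). The water channel gene Aqp1 (1.38) and the amino acid transporter gene Slc6a19 (0.79) rose less.

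The 3 proximal tubule transporters that did not pass were Abcg2, Abcc2 and Slc6a18. In each, day 3 library 1 stood apart from the other two of its day: Abcg2, an efflux pump for urate, had 77, 23.7 and 24.2 FPKM at day 3 and 48.6, 51.5 and 58 at day 7, and Slc6a18, a neutral amino acid transporter, 87.7, 26 and 26.7 FPKM at day 3 and 69.6, 86.3 and 72.9 at day 7. Without that library the differences were 1.1, adjusted p = 0.00254 for Abcg2, 1.49, adjusted p = 0.000349 for Slc6a18 and 0.67, adjusted p = 0.00304 for Abcc2.

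Metabolic and brush border genes of the proximal tubule rose in 46 of 55 cases, with a median of 2.45. Mep1b, a brush border protease, had 0.43, 2.44 and 5.36 FPKM at day 3 and 65.8, 69 and 86.6 at day 7 (log2 difference 4.56, SE 0.51, limma adjusted p = 0.000128). Acmsd, which diverts tryptophan breakdown away from NAD, had 0.63, 2.11 and 2.34 FPKM at day 3 and 46.3, 92.1 and 81.5 at day 7 (log2 difference 4.8, SE 0.62, limma adjusted p = 0.00027). Pck1, the gluconeogenic PEPCK, differed by 3.21, Fbp1 by 2.56, Miox, which degrades inositol, by 3.41, and Ass1, which makes argininosuccinate, by 3.27. Cyp27b1, the enzyme that activates vitamin D, was the 1 member that fell, with 5.79, 5.79 and 5.93 FPKM at day 3 and 0.55, 1.61 and 0.85 at day 7 (log2 difference -1.81, SE 0.26, limma adjusted p = 0.000467). Kap, an androgen-regulated gene that is among the most abundant kidney messages, did not pass. It had 2396, 12502 and 16457 FPKM at day 3 and 27455, 17596 and 25742 at day 7 (log2 difference 1.55, SE 0.62, limma adjusted p = 0.0596), with the first day 3 library well below the rest. Kap was called higher without day 3 library 1 (0.69, adjusted p = 0.0416) or 3 (2.08, adjusted p = 0.022), with length and GC trends removed (1.67, adjusted p = 0.046), after quantile normalization (1.61, adjusted p = 0.0297) and when libraries were set to equal sums without mitochondrial genes (1.61, adjusted p = 0.0413). None of the 8 uncalled members had a 95% interval within a 2-fold difference, so their lack of a call is no sign of equal levels.

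Genes of segments beyond the proximal tubule were higher too. Thick ascending limb genes were higher in 14 of 16, with a median of 2.22. Umod, which encodes uromodulin, had 155, 481 and 117 FPKM at day 3 and 919.6, 1066 and 926 at day 7 (log2 difference 2.23, SE 0.45, limma adjusted p = 0.00298), Slc12a1, the loop diuretic target, 15.3, 29.5 and 11.6 FPKM at day 3 and 172, 208 and 166 at day 7 (log2 difference 3.3, SE 0.35, limma adjusted p = 0.000106), and Egf, the growth factor made in this segment, 1.4, 8.24 and 5.7 FPKM at day 3 and 92.7, 63.7 and 107 at day 7 (log2 difference 4.04, SE 0.45, limma adjusted p = 0.000135). At day 3 all 3 genes were highest in library 2. The transcription factor gene Irx2 (3.08, 6.42 and 4.28 FPKM at day 3 and 4.6, 5.49 and 3.4 at day 7) was 1 of the 2 members that did not pass. Distal convoluted and connecting tubule genes were higher in 17 of 22. Slc12a3, the thiazide target, had 1.55, 2.8 and 1.98 FPKM at day 3 and 61.9, 58.9 and 77.5 at day 7 (log2 difference 4.44, SE 0.21, limma adjusted p = 3.43e-06), and the calcium-binding protein genes Calb1 and Pvalb differed by 4.61 and 3.76. Sgk1, a kinase driven by corticosteroids and cell stress, was the 1 that fell, with 35.5, 47.5 and 57.8 FPKM at day 3 and 18.8, 16.3 and 14.8 at day 7.

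In the collecting duct the 2 cell types had similar numbers of called members but different medians. Intercalated cell genes were higher in 15 of 20, none lower, with a median of 2.07. Slc4a1, the anion exchanger of acid-secreting cells, had 0.04, 0.08 and 0.12 FPKM at day 3 and 11.9, 11.6 and 10.7 at day 7 (log2 difference 3.52, SE 0.19, limma adjusted p = 5.08e-06), and the proton pump subunit gene Atp6v1b1 3.37, 1.4 and 1.07 FPKM at day 3 and 21.9, 21.7 and 22.5 at day 7 (log2 difference 3.05, SE 0.25, limma adjusted p = 3.27e-05). The regulator gene Foxi1 did not pass, with 17.5, 7.74 and 6.95 FPKM at day 3 and 15.3, 20.8 and 14.6 at day 7 (log2 difference 0.70, SE 0.32, limma adjusted p = 0.0905). Without day 3 library 1 Foxi1 gave 1.09, adjusted p = 0.00377, and it was also called with median-of-ratios scaling (0.85, adjusted p = 0.0296) and quantile normalization (0.89, adjusted p = 0.0368). The carbonic anhydrase gene Car2 did not pass either, with 194, 179.6 and 154 FPKM at day 3 and 168, 206 and 189 at day 7 and an interval of -0.23 to 0.42. Principal cell genes were higher in 12 of 20, lower in 2 and not called in 6, with a median of 0.76. The sodium channel subunit gene Scnn1g (2.35) and the cortisol-inactivating Hsd11b2 (2.74) rose, and the 2 that fell were the keratin genes Krt18 and Krt8, which are also on the injury list. Aqp2, the vasopressin-regulated water channel, had 71.6, 64.9 and 31 FPKM at day 3 and 135, 52.3 and 39 at day 7 (log2 difference 0.31, SE 0.59, limma adjusted p = 0.684). Its groups overlapped, and its interval of -1.04 to 1.65 leaves room for a difference beyond 2-fold either way. Rhcg, an ammonia transporter of both cell types, rose from 3.08, 1.26 and 1.46 to 42, 43.2 and 46.6 FPKM, with all 3 day 7 values below the sham values (92.8, 69 and 55.5). The difference in median between the 2 cell types was not tested.

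**Figure D3:**
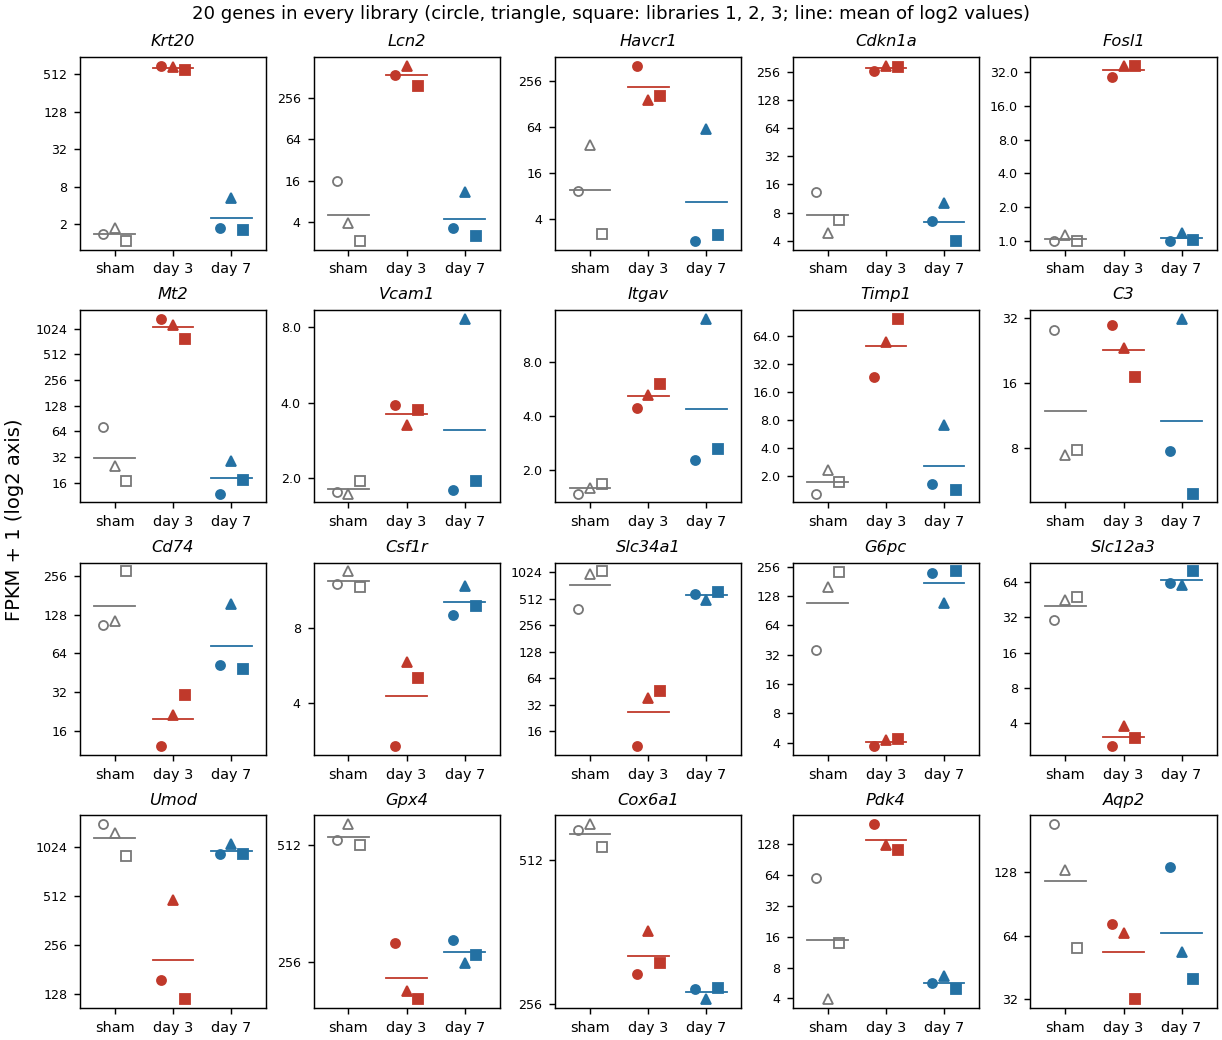
FPKM + 1 of 20 genes in every library, on a log2 axis; circles, triangles and squares are libraries 1, 2 and 3 of the sham, day 3 and day 7 groups, and lines are means of the log2 values. The second day 7 library (blue triangle) stands high for Havcr1, Vcam1, Itgav, Timp1, C3 and Cd74, while Slc34a1, G6pc and Slc12a3 separate day 3 from day 7 in all 6 cisplatin libraries.

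Transcription regulators of kidney epithelium gave a mixed result. Of 30 tested, 17 rose, 2 fell and 11 did not pass, with a median of 0.79. Kl, which encodes the FGF23 co-receptor klotho and was listed with the regulators, had 4.26, 2.69 and 2.77 FPKM at day 3 and 83.2, 85.9 and 103 at day 7 (log2 difference 4.45, SE 0.38, limma adjusted p = 3.62e-05). Hnf4a, the main proximal tubule factor, had 47.1, 17.1 and 20.1 FPKM at day 3 and 164, 145 and 148 at day 7 (log2 difference 2.54, SE 0.33, limma adjusted p = 0.000294), and Ppargc1a, the coactivator of mitochondrial genes, 4.6, 4.54 and 2.5 FPKM at day 3 and 10.1, 12.8 and 11 at day 7 (log2 difference 1.36, SE 0.19, limma adjusted p = 0.000367). The 6 values of each separated by day. Esrrg (1.8) and Maf (2.11) were also higher. Cebpa, a leucine zipper factor, fell (-0.78), a call lost without day 3 library 2 (-0.68, adjusted p = 0.0592) or day 7 library 2 (-0.72, adjusted p = 0.0508). With length and GC trends removed the call of Cebpa was also lost (-0.49, adjusted p = 0.0646). Pax8, a lineage factor of the whole nephron, did not pass, with 32.8, 19.3 and 19.7 FPKM at day 3 and 15.8, 18.1 and 11.2 at day 7 (log2 difference -0.62, SE 0.24, limma adjusted p = 0.057). Without day 7 library 2 Pax8 was called lower (-0.76, adjusted p = 0.0464), as it was with length and GC trends removed (-0.70, adjusted p = 0.0375). Ppara, the fatty acid receptor, did not pass (-0.28).

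Mitochondrial genes were mostly higher, by smaller amounts. Of 45 nuclear genes of the respiratory chain and ATP synthase, 34 rose and none fell, with a median of 0.68. Ndufs1, the largest subunit of complex I, had 10, 8.63 and 9 FPKM at day 3 and 35.2, 37 and 39.4 at day 7 (log2 difference 1.9, SE 0.20, limma adjusted p = 9.55e-05), and Sdha, the catalytic subunit of complex II, 75.9, 83.1 and 90.2 FPKM at day 3 and 197, 198 and 213 at day 7 (log2 difference 1.28, SE 0.16, limma adjusted p = 0.000225). All 3 day 7 values of Ndufs1 exceeded its sham values (11.7, 17.9 and 22.4). At day 7, all 3 libraries lay below every sham value for 16 of the 45 genes and above every sham value for 12. These counts were not set against the share over all tested genes. The 11 uncalled members all had intervals within a 2-fold difference. Among them, the cytochrome oxidase subunit genes Cox6a1 and Cox8a stood under every sham value in all 6 cisplatin libraries. Cox6a1 had 295, 362 and 311 FPKM at day 3 and 274, 261 and 275 at day 7 (log2 difference -0.25, SE 0.11, limma adjusted p = 0.0873) beside sham values of 592, 608 and 544. Cox8a had 298, 284 and 238 FPKM at day 3 and 256, 238 and 244 at day 7 (log2 difference -0.15, SE 0.11, limma adjusted p = 0.309) beside sham values of 427, 453 and 422. Both depended on the processing. With length and GC trends removed they turned sign and were called higher (0.33, adjusted p = 0.0194 for Cox6a1; 0.35, adjusted p = 0.0295 for Cox8a). Without day 3 library 1 Cox6a1 was called lower (-0.31, adjusted p = 0.0414).

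Of the 13 protein genes on the mitochondrial genome 10 rose, 1 fell and 2 did not pass. The 10 became 6 without day 3 library 3 or day 7 library 1 or 3, and 2 with no filter on low values. mt-Cytb had 7679.7, 9312 and 7883 FPKM at day 3 and 18213, 15696 and 17402 at day 7 (log2 difference 1.05, SE 0.14, limma adjusted p = 0.000347), whereas mt-Co1 had 31275, 44318 and 43399 FPKM at day 3 and 25286, 24249 and 26818 at day 7 (log2 difference -0.62, SE 0.17, limma adjusted p = 0.0115). With no filter neither gene was called (1.05, adjusted p = 0.11 for mt-Cytb and -0.62, adjusted p = 0.507 for mt-Co1). The fall of mt-Co1 was also not called with median-of-ratios scaling or quantile normalization, under which 11 and 4 of the 13 genes were higher. Mitochondrial transcripts made up 27.1% to 31.8% of the FPKM sum at day 3 and 31.7% to 32.6% at day 7.

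Genes of the tricarboxylic acid cycle and pyruvate oxidation rose in 23 of 26 cases, with a median of 1.0. Idh2 had 31.6, 27.6 and 22.8 FPKM at day 3 and 125, 113 and 119 at day 7 (log2 difference 2.1, SE 0.13, limma adjusted p = 8.08e-06), and Mdh1 differed by 2.26. Pdk4, the kinase that shuts pyruvate out of the cycle, was the 1 member that fell, with 199.8, 125 and 113 FPKM at day 3 and 4.63, 5.65 and 3.89 at day 7 (log2 difference -4.64, SE 0.80, limma adjusted p = 0.00126). Mdh2 and Dlst did not pass. Dlst was called higher with quantile normalization (0.72, adjusted p = 0.0475) and without sham library 1 (0.55, adjusted p = 0.0476). Fatty acid oxidation was more divided: 18 higher, 4 lower and 19 not called of 41, with a median of 0.26. Acat1, a thiolase of ketone and isoleucine breakdown, had 25.3, 25.2 and 28.4 FPKM at day 3 and 193, 144 and 192 at day 7 (log2 difference 2.69, SE 0.19, limma adjusted p = 1.44e-05), and Acadm, the medium-chain dehydrogenase, differed by 1.51. The peroxisomal gene Ehhadh (379.8, 94.3 and 94.6 FPKM at day 3 and 188, 162 and 194 at day 7) did not pass and was highest in day 3 library 1. Without that library Ehhadh gave 0.93, adjusted p = 0.0303, and 22 of the 41 were higher and 2 lower. Lower members also numbered 2 without day 3 library 2 or without any 1 of the day 7 libraries. Cpt1a, the gate to mitochondrial oxidation (-0.19 to 0.58), and Hadha (-0.55 to 0.27) had 95% intervals within a 2-fold difference.

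Glycolytic genes showed no common direction, with 5 higher, 4 lower and 9 not called of 18. Hk2, the inducible hexokinase, fell from 3.93, 3.5 and 3.66 FPKM to 0.31, 0.27 and 0.15 (log2 difference -1.92, SE 0.10, limma adjusted p = 4.84e-06), and the glucose transporter gene Slc2a1 from 55.5, 54.2 and 42.6 to 13.1, 16.4 and 10.4. Pfkm, the muscle-type phosphofructokinase, rose from 4.43, 3.63 and 3.49 to 16, 16.4 and 17.4. Aldoa, the muscle-type aldolase, did not pass, with 178, 179 and 147 FPKM at day 3 and 198, 154 and 156 at day 7 (log2 difference 0.01, SE 0.14, limma adjusted p = 0.958). Of 22 cholesterol genes 13 rose and none fell, led by Hmgcs1, an early synthase of the pathway, with 27.8, 18.6 and 19.5 FPKM at day 3 and 143, 133 and 146 at day 7 (log2 difference 2.64, SE 0.25, limma adjusted p = 5.65e-05), and by Cyp51 (2.55) and Idi1 (2.43). Day 7 values of Hmgcs1 lay above every sham value (38.4, 60.8 and 77.7). Among 17 NAD genes 12 rose, among them genes of the route from tryptophan such as Haao (1.24, 3.61 and 3.73 FPKM at day 3 and 32.9, 24.2 and 30.9 at day 7), Kmo (2.43) and Qprt (2.07). Nampt, which sets the pace of the salvage route, did not pass, with 38.8, 30.1 and 24.2 FPKM at day 3 and 31.2, 29.9 and 27.6 at day 7 (log2 difference -0.05, SE 0.18, limma adjusted p = 0.847), and the deacetylase gene Sirt1 fell (-0.92).

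**Figure D4:**
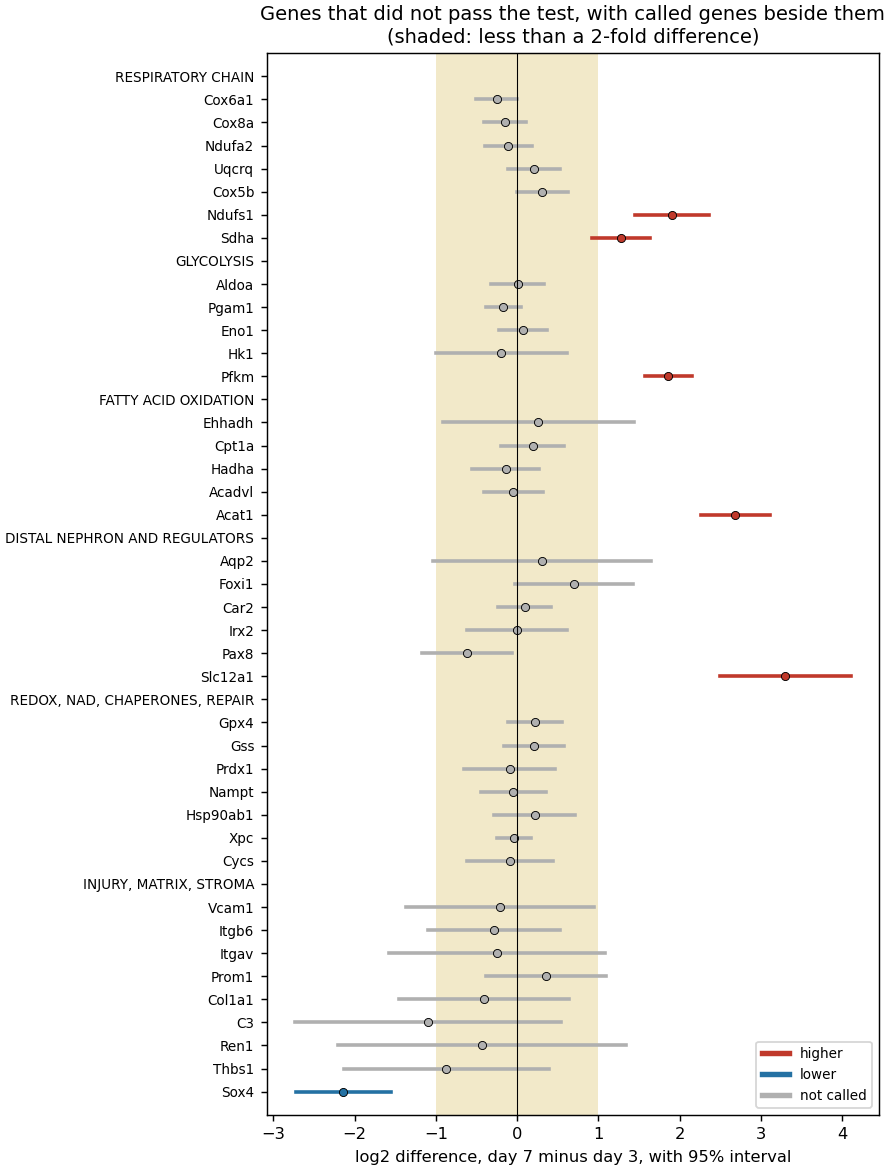
Log2 differences, day 7 minus day 3, with 95% intervals of limma's fit for genes that did not pass the test (grey) and called genes of the same families beside them (red, higher; blue, lower). The shaded band spans less than a 2-fold difference: Cox8a, Aldoa, Xpc and Nampt lie inside it, whereas the intervals of Aqp2, Vcam1, C3 and Ren1 cross its edge.

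Not being called took 2 forms. Of the 6115 uncalled genes, 4816 had a 95% interval within a 2-fold difference either way, and 1991 had one within 0.5 log2 units. The first kind made up 78.8% of the uncalled genes. The other 1299 had intervals that reached a 2-fold difference, and in 1058 of these the interval also held 0. Of the uncalled genes, 710 had an unadjusted p under 0.05. The interval lay within 2-fold for all 11 uncalled respiratory chain genes, all 5 uncalled proteasome genes and all 6 uncalled p53 targets, and for 7 of 9 uncalled glycolytic genes, a share near that of all uncalled genes. It did so for none of the 8 uncalled proximal tubule metabolic genes, none of the 6 antigen presentation genes, 1 of 6 principal cell genes, 3 of 14 complement genes and 6 of 19 matrix genes. Endothelial genes had 7 of 13 and pericyte genes 5 of 9. These shares were not tested against each other.

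Glomerular, vascular and stromal genes gave mixed results. Podocyte genes had 6 higher, 3 lower and 7 uncalled members of 16. Synpo, an actin-associated protein of the foot process, was lower (6.37, 8.68 and 6.73 FPKM at day 3 and 2.25, 2.38 and 1.96 at day 7). Nphs1, the nephrin gene, was at -0.01 and did not pass. Of 23 endothelial genes 7 fell, 3 rose and 13 did not pass, beside 33.7% lower and 21.7% higher of all tested genes. Plat, the tissue plasminogen activator gene, had 92, 80.5 and 103 FPKM at day 3 and 9.22, 12.8 and 7.45 at day 7 (log2 difference -3.12, SE 0.23, limma adjusted p = 1.71e-05), Nos3 fell by 1.87, and Igfbp5 rose (1.98). Pecam1 (-0.28), Kdr (0.21) and Plvap (22.4, 38.1 and 48.7 FPKM at day 3 and 36.7, 42.1 and 25.8 at day 7) did not pass. In all 3, day 3 library 1 held the lowest value of its day. Without that library 12 of the 23 were lower, Pecam1 among them (-0.63, adjusted p = 0.0341), and without day 3 library 2 or day 7 library 3 only 4 were.

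Extracellular matrix and fibroblast genes were lower in 18, higher in 2 and uncalled in 19 of 39, with a median of -0.87. Without day 3 library 3, 13 were lower and 3 higher, with a median of -0.41. Without day 3 library 1, 22 were lower and 1 higher, with a median of -1.15. The lower members numbered 12 without day 7 library 1 or 3, and 14 with median-of-ratios scaling. Regulators of matrix turnover were among those that fell furthest. Timp1, a metalloproteinase inhibitor, had 22.2, 53 and 96.1 FPKM at day 3 and 0.64, 6.13 and 0.44 at day 7 (log2 difference -4.27, SE 0.67, limma adjusted p = 0.000757), and Ccn2, a target of TGF-beta and YAP, 50.3, 72.8 and 149 FPKM at day 3 and 10.8, 10.6 and 10.7 at day 7 (log2 difference -2.82, SE 0.36, limma adjusted p = 0.000255). Timp3 went the other way, with 110.5, 68 and 98.2 FPKM at day 3 and 265, 189 and 263 at day 7 (log2 difference 1.38, SE 0.22, limma adjusted p = 0.000748). Structural collagens were less clear. The basement membrane genes Col4a1 (-1.38) and Col4a2 (-1.2) fell, but Col1a1 had 3.07, 4.32 and 9.32 FPKM at day 3 and 2.52, 7.66 and 2.15 at day 7 (log2 difference -0.41, SE 0.46, limma adjusted p = 0.478) and Col3a1 3.78, 11.4 and 20.6 FPKM at day 3 and 2.81, 11.9 and 2.96 at day 7, and neither passed. In both, day 3 library 3 and day 7 library 2 were the highest of their days. The pericyte and smooth muscle genes Acta2 (22.2, 33.2 and 65.5 FPKM at day 3 and 12.7, 20.2 and 15.7 at day 7) and Tagln (18.2, 28.8 and 91.2 FPKM at day 3 and 9.05, 19.2 and 11.5 at day 7) were called lower with day 3 library 3 on top as well. Without that library, Acta2 gave -0.74, adjusted p = 0.0324 and Tagln -0.81, adjusted p = 0.0562. Tagln was not called with the 6 cisplatin libraries alone (adjusted p = 0.0699). Nor was it with median-of-ratios scaling (-1.31, adjusted p = 0.0608) or quantile normalization (-1.37, adjusted p = 0.0598). The call of Acta2 was lost without day 7 library 1 (-1.0, adjusted p = 0.0675) or 3 (-1.14, adjusted p = 0.0519), and that of Tagln also without day 3 library 2 (-1.63, adjusted p = 0.0536), day 7 library 1 (-1.24, adjusted p = 0.112), day 7 library 3 (-1.4, adjusted p = 0.093) or sham library 2 (adjusted p = 0.0517). Ren1, the renin gene, ranged 10-fold or more within day 3 (14.9, 77.7 and 189) and did not pass, but without day 3 library 1 it was called lower (-1.41, adjusted p = 0.04).

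Tested genes of inflammatory signalling were mostly lower at day 7. Of 23 tested chemokine and cytokine genes 14 fell and 2 rose, with a median of -1.21. Another 15 listed members stayed below the filter. Genes near 0 at day 7 and in sham can pass it only through day 3. With no filter, 17 of 38 were lower, 2 higher and 19 not called, with a median of -0.62. Cxcl1, a neutrophil attractant, had 57.6, 25.1 and 30.6 FPKM at day 3 and 0.15, 2.79 and 0.13 at day 7 (log2 difference -4.42, SE 0.51, limma adjusted p = 0.000154), and Lif, a cytokine of the IL-6 family, 19.7, 16 and 21.2 FPKM at day 3 and 0.06, 0.83 and 0.11 at day 7 (log2 difference -3.94, SE 0.21, limma adjusted p = 4.83e-06). Cxcl12, a chemokine made by resident cells, rose, with 2.08, 2.01 and 3.63 FPKM at day 3 and 12.9, 11.1 and 6.63 at day 7 (log2 difference 1.63, SE 0.30, limma adjusted p = 0.00184), and Cx3cl1 did not pass, with 14.7, 12.6 and 13.4 FPKM at day 3 and 10.8, 19.2 and 12.9 at day 7. NF-kB response genes fell in 20 of 25 cases, among them the inhibitor gene Nfkbia (48.3, 40.6 and 41.4 FPKM at day 3 and 5.93, 7.64 and 5.06 at day 7) and Socs3 (20.9, 29.6 and 27.1 FPKM at day 3 and 0.67, 3.58 and 0.44 at day 7), and the mitochondrial superoxide dismutase gene Sod2 was the 1 that rose (1.35).

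Interferon-stimulated genes fell in 28 of 33 cases, with a median of -1.54. Isg15, a ubiquitin-like modifier, had 27.7, 44.5 and 27.9 FPKM at day 3 and 1.69, 3.98 and 1.91 at day 7 (log2 difference -3.31, SE 0.28, limma adjusted p = 3.34e-05), Oasl1 15.9, 25.8 and 8.12 FPKM at day 3 and 0.34, 1.03 and 0.45 at day 7 (log2 difference -3.34, SE 0.35, limma adjusted p = 9.55e-05), and the regulator gene Irf7 10.6, 14.6 and 11.4 FPKM at day 3 and 1.15, 2.21 and 1.09 at day 7 (log2 difference -2.42, SE 0.21, limma adjusted p = 3.6e-05). In all 3 the second day 7 library was the highest of its day and still under every day 3 library. All 33 tested members were highest in that library at day 7, against 56.4% of all tested genes. Irf1, a regulator of the response, did not pass, and day 3 library 1 stood out, with 48.3, 3.49 and 9.25 FPKM at day 3 and 2.85, 6.52 and 2.46 at day 7. Without day 3 library 2 Irf1 was called lower (-2.28, adjusted p = 0.019). The Isg15 promoter is shown because 11 of the 29 promoters of listed members (37.9%) held the interferon-stimulated response element, searched on both strands as GAAA, NN and GAAA in a row, against 2.98% of all promoters. Capitals mark 3 overlapping matches (chr4:156200819-156201068, minus strand, GRCm38.p6).
Isg15: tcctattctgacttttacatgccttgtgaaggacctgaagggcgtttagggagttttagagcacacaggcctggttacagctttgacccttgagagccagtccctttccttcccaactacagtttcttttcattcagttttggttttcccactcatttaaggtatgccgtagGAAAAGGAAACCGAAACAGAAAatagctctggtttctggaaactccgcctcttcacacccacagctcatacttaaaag
They begin 78, 72 and 66 bases before the start. A match of letters is no evidence that a factor binds there.

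Immune cell markers were sparse. Of 20 neutrophil markers 7 passed the filter and all 7 fell, although Lcn2 among them is also an injury gene of the tubule. Markers near 0 at day 7 and in sham can pass that filter only through day 3, so this count is no separate support. With no filter, 13 of 20 were lower, 7 were not called and the median was -0.67. Over all genes fitted with no filter, 6211 of 32394 were lower. S100a8, a calcium-binding protein of neutrophils, had 7.51, 33.9 and 15.2 FPKM at day 3 and 0.7, 4.95 and 1.43 at day 7 (log2 difference -2.54, SE 0.65, limma adjusted p = 0.00993), and Retnlg 6.03, 16.1 and 7.2 FPKM at day 3 and 0.5, 0.95 and 0.6 at day 7 (log2 difference -2.57, SE 0.37, limma adjusted p = 0.000493), while Ly6g and Elane were at 0.49 FPKM or less in all libraries. Of 17 tested macrophage and monocyte markers, 7 fell, 4 rose and 6 did not pass. The 4 that rose became 2 without day 3 library 3 or day 7 library 2 or 3. With the filter on the 6 cisplatin libraries alone, 14 were tested, 7 fell and 2 rose. The list holds Spp1, which is also an injury gene of the tubule. Cd68, a lysosomal protein, had 95.2, 114 and 86.7 FPKM at day 3 and 2.17, 4.1 and 1.56 at day 7 (log2 difference -4.84, SE 0.24, limma adjusted p = 3.76e-06), Cd14, the lipopolysaccharide co-receptor, 39.2, 42.4 and 38 FPKM at day 3 and 2.12, 4.32 and 1.3 at day 7, and Chil3, a chitinase-like protein, 18.7, 98.4 and 59.4 FPKM at day 3 and 5.07, 4.57 and 2.91 at day 7. Among those that rose, Csf1r, the CSF-1 receptor, had 1.69, 4.85 and 4.05 FPKM at day 3 and 8.04, 10.8 and 8.85 at day 7 (log2 difference 1.24, SE 0.26, limma adjusted p = 0.00372), and Cx3cr1 differed by 1.04. The 4 members of the antigen list called higher were the MHC class II genes H2-Aa, H2-Ab1 and H2-Eb1 and Cd74, which encodes the invariant chain, and the calls of all but H2-Aa depended on single libraries. Cd74 had 11.2, 20.4 and 29.7 FPKM at day 3 and 51.3, 155 and 47.3 at day 7 (log2 difference 1.87, SE 0.55, limma adjusted p = 0.0181), and its second day 7 library was 3-fold above the others. The call of Cd74 was lost without that library (1.33, adjusted p = 0.0529) or without day 3 library 1 (1.52, adjusted p = 0.0613). That of H2-Ab1 was lost without day 3 library 1 (1.15, adjusted p = 0.0966) or 2 (1.47, adjusted p = 0.075) or day 7 library 2 (0.97, adjusted p = 0.0815), and that of H2-Eb1 without day 3 library 1 (0.98, adjusted p = 0.0609). H2-Ab1 was also not called with the 6 cisplatin libraries alone (adjusted p = 0.0512) or with no filter (adjusted p = 0.0615). The antigen processing genes Tap1 (-1.93) and Psmb8 (-1.14) and the class I gene H2-D1 (-1.41) fell. Without the second day 7 library the list of 16 gave 2 higher and 9 lower, in place of 4 and 6, and without day 3 library 1 it gave 1 and 6.

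Complement genes had 3 higher, 2 lower and 14 uncalled members of 19, with a median of 0.19. Without day 7 library 2 there were 4 lower and the median was -0.11, and 1 was lower without day 3 library 2 or 3 or day 7 library 1 or 3. Cfb, made by tubule cells, had 50.2, 25.5 and 29 FPKM at day 3 and 104, 114 and 109 at day 7 (log2 difference 1.68, SE 0.26, limma adjusted p = 0.000746). C3, the central component, did not pass and its second day 7 library was the highest of the 6, with 28.8, 22.2 and 16 FPKM at day 3 and 6.7, 30.9 and 3.88 at day 7 (log2 difference -1.1, SE 0.72, limma adjusted p = 0.226). Without that library C3 was called lower (-1.89, adjusted p = 0.0271). Lymphocyte markers were largely below the filter, with 5 of 26 tested. With the filter on the 6 cisplatin libraries alone, 4 were tested, and the T cell receptor gene Trac was not. Cd3e, a T cell marker, was at 0.18 FPKM or less in all 9 libraries. The T cell receptor constant gene Trac (0.2, 0.27 and 0.25 FPKM at day 3 and 1.54, 2.74 and 0.78 at day 7) and the immunoglobulin gene Ighm (0.22, 0.5 and 0.3 FPKM at day 3 and 2.57, 5.16 and 2.69 at day 7) were higher at day 7 at low levels.

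Genes of protein synthesis and breakdown fell. All 44 cytosolic ribosomal protein genes tested were lower at day 7, with a median of -1.23 and a range from -1.7 for Rpl12 to -0.42 for Rpl3. The call of Rpl3 was lost without day 3 library 1 (-0.29, adjusted p = 0.0593), day 7 library 1 (-0.42, adjusted p = 0.0701) or 3 (-0.36, adjusted p = 0.101), and with median-of-ratios scaling (-0.25, adjusted p = 0.081), which left 43 of 44 lower. Rpl13 had 185, 201 and 189 FPKM at day 3 and 60.6, 66.1 and 54.4 at day 7 (log2 difference -1.65, SE 0.11, limma adjusted p = 1.08e-05), and Rps19 77.4, 79.8 and 71.8 FPKM at day 3 and 20.6, 27.9 and 20.8 at day 7 (log2 difference -1.69, SE 0.14, limma adjusted p = 3.42e-05). Ribosomal protein genes have many near-identical pseudogenes, and reads may be split among them: of 848 processed pseudogenes tested, 377 were lower and 66 higher. Their transcripts are also short, with a median of 1259 nucleotides for the longest transcript against 2918 over all tested genes. Across protein-coding genes the median difference went from -0.33 for longest transcripts of 500 to 1000 nucleotides to 0.09 for those over 8000. With trends in length and GC content removed, 44 of 44 were still lower, with a median of -1.16. With libraries set to equal sums without mitochondrial genes, 42 of 44 were lower and Rpl3 was not called (-0.36, adjusted p = 0.0875). Ribosome biogenesis genes fell in 19 of 27 cases, led by Ppan (-1.52) and Nop56 (-1.41), none rose, and Odc1 and Ubtf did not pass. Proteasome subunit genes fell in 25 of 30, with a median of -0.66, and none rose. Examples were Psmd8 (68.3, 66.2 and 66.4 FPKM at day 3 and 23.6, 23.8 and 24.9 at day 7) and Psmd4 (53.1, 61.8 and 56.5 FPKM at day 3 and 23.8, 20.6 and 19.4 at day 7). With median-of-ratios scaling 1 proteasome gene was higher and 20 were lower, and with quantile normalization 1 and 23.

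Clock genes also differed. Of 20, 10 fell, 5 rose and 5 did not pass. Per1, a core repressor that also answers stress hormones, had 15.9, 26.2 and 20.8 FPKM at day 3 and 1.52, 1.69 and 1.08 at day 7 (log2 difference -3.16, SE 0.18, limma adjusted p = 7.16e-06), Cry2 differed by -1.71 and Nr1d1 by -1.71, while the activator genes Arntl (1.38) and Npas2 (1.5) and the output gene Hlf (0.8, 0.49 and 0.77 FPKM at day 3 and 13.1, 10.4 and 13.5 at day 7) rose. Time of day at sampling is not in the labels, so it cannot be told apart from the day after cisplatin. The Per1 promoter that holds an E-box, CACGTG, is shown with that site in capitals, 166 bases before 1 of its 2 listed starts (chr11:69098699-69098948, plus strand, GRCm38.p6).
Per1: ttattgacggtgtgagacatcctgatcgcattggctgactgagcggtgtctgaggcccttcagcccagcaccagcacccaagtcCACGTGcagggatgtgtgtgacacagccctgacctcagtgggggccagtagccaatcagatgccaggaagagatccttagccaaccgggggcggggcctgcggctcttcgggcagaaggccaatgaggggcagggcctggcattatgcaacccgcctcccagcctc
An E-box was found in 23.8% of 21 promoters of listed clock genes and in 6.02% of all promoters. Among hormone-related genes, the parathyroid hormone receptor gene Pth1r had 20, 9.42 and 10.7 FPKM at day 3 and 120.2, 93.3 and 119 at day 7 (log2 difference 3.02, SE 0.25, limma adjusted p = 3.19e-05), the angiotensin-converting enzyme gene Ace rose (2.26), and the EGF receptor ligand genes Hbegf (-2.62) and Areg (-2.18) fell.

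The 3 libraries of day 7 were not alike. Of all tested genes, 146 were at least 2-fold higher in library 2 than in both others, against 65 for library 1 and 37 for library 3. At day 3 library 1 stood apart most, with 266 genes at least 2-fold above and 214 at least 2-fold below both others. Within day 7, library 2 was the highest for 31 of 37 injury markers, 36 of 39 matrix genes, 15 of 16 antigen presentation genes and 22 of 23 endothelial genes, and the lowest for 35 of 55 proximal tubule metabolic genes and 12 of 13 mitochondrial protein genes. Over all tested genes it was the highest for 56.4% and the lowest for 18.8%. It was the lowest for 21 of 45 proximal tubule transporters. Genes chosen after their values were seen, as the furthest above the other day 7 libraries, included Havcr1, Itgav, Vcam1, Timp1, C3, the matrix gene Mgp (16.3, 73.1 and 17.5 FPKM at day 7) and the retinoic acid synthesis gene Aldh1a2 (0.98, 6.9 and 0.9). Mgp did not pass with all libraries (log2 difference -1.31, SE 0.65, limma adjusted p = 0.114) and was called lower without that one (-2.0, adjusted p = 0.0164). Aldh1a2 was called lower (log2 difference -2.17, SE 0.68, limma adjusted p = 0.0247), a call lost without day 3 library 2 (-2.18, adjusted p = 0.0591) or 3 (-1.53, adjusted p = 0.0784) or day 7 library 1 (-1.85, adjusted p = 0.0826) or 3 (-1.82, adjusted p = 0.0861). Aldh1a2 was also not called with the 6 cisplatin libraries alone (adjusted p = 0.0514) or with no filter (adjusted p = 0.053). Without library 2, 2537 genes were higher and 4468 lower at day 7, and Havcr1 gave -6.56, adjusted p = 0.00133.

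**Figure D5:**
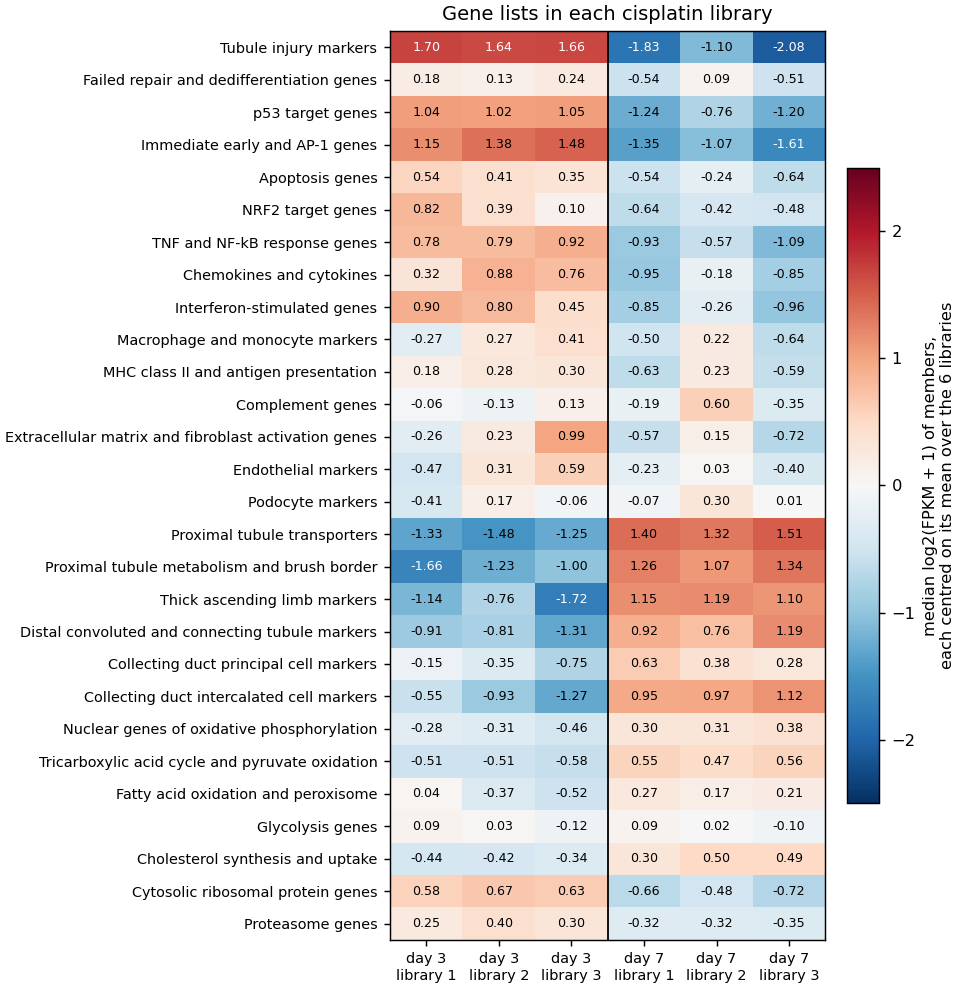
Median level of each gene list in each cisplatin library, as log2(FPKM + 1) with each gene centred on its mean over the 6 libraries; red is above and blue below that mean. Injury markers are at -1.83 and -2.08 in day 7 libraries 1 and 3 and at -1.10 in library 2, and failed repair genes are at 0.09 in that library beside -0.54 and -0.51.

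Transcripts of blood and other tissues varied between libraries. Haemoglobin genes, which come from red cells left in the tissue and whose copies are near-identical, were called higher at day 7, but Hba-a1 had 2.47, 3 and 1.27 FPKM at day 3 and 21.4, 5.8 and 87.8 at day 7, a spread of more than 10-fold within that day. Alb, a liver transcript, was at 17.3, 118 and 0.46 FPKM at day 3 and 20.8, 18.2 and 17.7 at day 7, and did not pass. Of 9 liver secretory markers 2 rose, 1 fell and 6 did not pass. The muscle gene Mylpf fell at a low level (1.55, 1.48 and 1.33 FPKM at day 3 and 0.92, 0.67 and 0.6 at day 7), a call lost with length and GC trends removed (-0.29, adjusted p = 0.0657). Of 10 adipose markers 5 were tested: 3 fell, 1 rose and 1 did not pass, with a median of -1.53. Cidec, a lipid droplet gene, had 26.9, 9.06 and 6.12 FPKM at day 3 and 0.63, 0.1 and 0.1 at day 7 (log2 difference -3.33, SE 0.44, limma adjusted p = 0.000294), and Fabp4, a fatty acid carrier of fat and endothelium, 23.4, 29.7 and 27.6 FPKM at day 3 and 7.15, 10.2 and 6.39 at day 7 (log2 difference -1.66, SE 0.27, limma adjusted p = 0.000959). The lipase gene Pnpla2 fell as well (-1.53), Lpl rose (1.81), and the defining markers Adipoq and Plin1 were below the filter at 2.16 FPKM or less and 0.38 or less. The adipose markers summed to 103 to 152 FPKM at day 3 and to 82.7 to 112 at day 7. Of 5 tested urothelial markers the basal keratin gene Krt5 fell (6.26, 6.25 and 6.64 FPKM at day 3 and 0.92, 0.41 and 0.21 at day 7; log2 difference -2.31, SE 0.26, limma adjusted p = 0.000141), and Upk1a, Upk1b, Upk2 and Upk3a did not pass. Xist, made by the inactive X chromosome, was at 0.13 FPKM or less and the Y-linked Ddx3y at 1.66 or more in all 9 libraries, and Ddx3y did not pass (log2 difference -0.15, SE 0.19, limma adjusted p = 0.528). The part of these tissues in other results was not tested.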

How the data were processed

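RNA was extracted from whole mouse kidney with TRIzol and sequenced as directional libraries on an Illumina HiSeq instrument, per the labels' protocols. The authors deposited 1 table of FPKM per library, with 55385 gene identifiers in each. The submitters' processing notes name FastQC 0.10.1, HISAT, StringTie and the build GRCm38; neither the annotation release nor any use of strand in counting is given in the sources used here. FPKM divides by transcript length and by library total, so a large change in a few abundant transcripts shifts all other values. The low values gave no whole-read steps, so depth is unknown and no counting interval is given. FPKM sums ranged from 421810 to 483609 at day 3 and from 443853 to 472507 at day 7.

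Symbols, biotypes, positions and transcript lengths came from GENCODE M21 (GRCm38), which matched 55144 identifiers, and promoters from RefSeq (GRCm38.p6). Groups followed the sample titles. Values were taken as log2(FPKM + 1), and a gene was kept if 3 or more of the 9 libraries reached 1 FPKM. limma 3.58.1 (R 4.3.3) fitted 1 mean per group over all 9 libraries, with moderated variances following a mean trend, and tested day 7 against day 3 with a two-sided test, Benjamini-Hochberg adjusted over all tested genes. The procedure was tested on simulated data. Tables were made with Python 3.11.15 and pandas 2.3.3.

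Replicate numbers were not treated as pairs in the main fit, and the titles do not say what they mean. Deviations from the group means of same-numbered day 3 and day 7 libraries correlated by 0.026, 0.012 and -0.054 across genes. With so few libraries, these values do not settle whether the numbers mark a shared batch. The comparison, the 52 gene lists (1220 genes, 1044 tested) and their tests were chosen with earlier results of these data known. Gene lists are described by counts and medians without a test of the list. Named genes were the 10 largest differences each way among called genes whose libraries did not overlap and that had a mean of at least 5 FPKM in a group; per list, the 4 called members that differed most, given a mean of 1 FPKM or more; the called member furthest against its list; up to 2 abundant uncalled members; a fixed set of injury and segment genes; and the 5 called genes each way with the largest moderated t. The first and last of these skipped predicted genes, pseudogenes and receptor segments. Another 62 tested genes, chosen after their values were seen, are named as examples. Some genes are not reported here. Alternatives changed the pseudocount, the filter, the scaling between libraries, the variance model, the libraries fitted, the gene set, and length and GC trends.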

Additional observations from a re-analysis of the deposited data

How the results depend on the processing

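The counts of called genes were 2977 higher and 4626 lower. With a filter at 5 FPKM, which leaves 7692 tested genes, 4973 genes were called and 2976 were lower, against 7603 and 4626. Under the other alternatives run, these counts and the 3279 called genes of at least 2-fold stayed within 1.5 times their values. Leaving out 1 library at a time gave 6267 to 7901 called genes, 2493 to 3245 higher, 3688 to 4806 lower, 3057 to 3541 of at least 2-fold and 667 to 761 of the list members. The fit with the replicate number as a block called 7540 genes, 2936 higher and 4604 lower, with 3286 of at least 2-fold, and 743 list members. Pax8 was the 1 named gene whose call the block changed (-0.62, adjusted p = 0.0243). Of 2184 counts over gene lists and settings, 2063 stayed within 1.5 times. Of the 248 tested genes named, 214 kept their side of the threshold in every alternative run, and their direction wherever they were called. Sign changes of genes uncalled in both fits were not counted. Cox6a1 and Cox8a turned sign with length and GC trends removed, to 0.33 and 0.35. The cause was not tested. Depth is unknown, so low genes such as those of mitosis or lymphocytes carry an error that the files do not show.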
